A study of Mus musculus with 8 samples.

Results

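The G2/M and mitosis genes described here are 45 mouse genes, chosen by name as genes of the G2 to M transition, the spindle, chromosome segregation and cytokinesis, out of 55919 genes in the deposited table. The study made 8 poly-A RNA libraries of whole kidneys from female C57BL/6 x 129S4/SvJae mice, 2 per group, and each pooled RNA of 3 mice. The groups were Tet1 KO kidneys 3 days after ischemia and reperfusion (KO-I/R 3D, injured KO), WT kidneys after the same injury (WT-I/R 3D, injured WT), Tet1 KO kidneys without injury (KO-NI, non-injured KO) and WT kidneys without injury (WT-NI, non-injured WT). For the injury the left renal pedicle was clamped for 45 min and then released. Tet1, a dioxygenase that oxidises 5-methylcytosine in DNA, was deleted in the germline of the KO mice, so every cell type of the kidney carried the deletion. WT mice were Tet1 +/+, and the labels name no other treatment. The labels give no age for the sequenced mice, and the sources do not state whether non-injured kidneys came from other mice than injured ones. The comparisons ask how this set of genes responded to injury in each genotype, and whether it differed between Tet1 KO and WT kidneys.

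Cells that divide pass from G2 into mitosis when the kinase Cdk1, bound to a B-type cyclin, becomes active. The spindle then attaches to kinetochores on each chromosome, a checkpoint holds the cell until all are attached, and the anaphase-promoting complex releases the sister chromatids before cytokinesis. In the normal adult kidney few tubular cells divide, and surviving tubular cells re-enter the cell cycle after ischemia, when infiltrating and interstitial cells can divide too.

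Many G2/M genes are known to share promoter elements, so the promoters of the 45 genes were searched first. RefSeq promoter windows on GRCm38.p6, from 250 bases before to 50 bases after the start site, were matched for 37 of the 45 genes (39 windows, since 2 genes had 2 windows each). The windows were searched on both strands for TTTGAA or TTTAAA, the cell cycle genes homology region (CHR) that MuvB complexes bind, for CCAAT, the box bound by NF-Y, and for TTTGGCGC or TTTCGCGC, sites of the E2F type. The sequences of 5 genes that hold both a CHR and a CCAAT box are shown, because they belong to the genes that drive entry into and exit from mitosis. Each runs 5′ to 3′ from 250 bases before to 30 bases after the start, with matches in capitals (ATTGG is CCAAT read on the other strand).
Ccnb1: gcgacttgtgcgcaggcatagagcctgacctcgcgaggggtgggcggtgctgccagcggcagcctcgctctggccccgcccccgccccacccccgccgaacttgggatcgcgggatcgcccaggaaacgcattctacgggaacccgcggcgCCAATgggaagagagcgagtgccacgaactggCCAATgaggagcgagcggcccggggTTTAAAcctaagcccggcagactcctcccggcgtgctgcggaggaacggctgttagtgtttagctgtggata
Ccnb2: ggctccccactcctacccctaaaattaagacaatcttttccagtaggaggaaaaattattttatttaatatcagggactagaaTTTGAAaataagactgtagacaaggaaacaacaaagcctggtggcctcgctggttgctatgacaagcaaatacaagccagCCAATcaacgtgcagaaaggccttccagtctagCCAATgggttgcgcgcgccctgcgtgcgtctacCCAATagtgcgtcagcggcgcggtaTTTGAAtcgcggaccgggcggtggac
Cdk1: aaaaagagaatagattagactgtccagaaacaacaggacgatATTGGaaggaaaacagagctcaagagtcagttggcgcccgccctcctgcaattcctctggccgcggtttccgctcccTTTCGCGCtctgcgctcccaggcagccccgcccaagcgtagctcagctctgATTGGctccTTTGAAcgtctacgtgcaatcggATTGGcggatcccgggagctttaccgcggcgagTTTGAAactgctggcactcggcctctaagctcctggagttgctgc
Cdc20: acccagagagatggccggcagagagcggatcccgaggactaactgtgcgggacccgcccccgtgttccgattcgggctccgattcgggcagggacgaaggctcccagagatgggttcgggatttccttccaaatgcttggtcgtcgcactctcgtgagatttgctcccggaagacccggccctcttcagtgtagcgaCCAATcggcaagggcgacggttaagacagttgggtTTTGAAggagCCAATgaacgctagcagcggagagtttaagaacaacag
Plk1: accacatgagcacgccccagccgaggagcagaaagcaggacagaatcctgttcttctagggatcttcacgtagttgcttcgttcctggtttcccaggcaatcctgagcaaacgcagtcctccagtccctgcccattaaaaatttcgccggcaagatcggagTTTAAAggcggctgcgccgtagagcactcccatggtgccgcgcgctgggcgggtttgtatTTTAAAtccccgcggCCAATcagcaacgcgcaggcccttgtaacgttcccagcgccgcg

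These lie at chr13:100786457-100786736 on the minus strand for Ccnb1, chr9:70421525-70421804 on the minus strand for Ccnb2, chr10:69352883-69353162 on the minus strand for Cdk1, chr4:118437314-118437593 on the minus strand for Cdc20 and chr7:122159185-122159464 on the plus strand for Plk1, and each covers sequence just upstream of the gene and the start of its first exon. In Ccnb1 the boxes began 99 and 67 bases before the start, 32 bases apart, and the CHR began 42 bases before it. In Ccnb2 there were 3 boxes, 33 bases apart in both gaps, and CHRs began 167 bases before the start and at base 5 of the transcript. In Cdk1 the boxes stood on the opposite strand, with 32 bases between the last pair, and CHRs began 71 and 15 bases before the start. Cdk1 was also the only one of the 37 genes with an E2F match, 131 bases before the start. In Cdc20 the boxes began 53 and 8 bases before the start, on either side of a CHR at 18 bases before it. In Plk1 the only box, 14 bases before the start, lay downstream of CHRs at 89 and 29 bases before it, and a further CHR began at base 31, just beyond the stretch printed.

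A CHR was found in 33 of the 39 windows (84.6%) and in 27.6% of all 32851 windows. A CCAAT box was found in 29 (74.4%) against 37.4% of all windows, and 2 or more boxes in 19 (48.7%) against 11.7%. Both elements together were found in 28 windows (71.8%), against 10.7% of all windows. Within 50 bases of the start site a CHR was found in 29 (74.4%), against 8.28% of all windows. Over the whole window an E2F match was found in 1 (2.56%), against 0.813% of all windows. The spacing of the boxes was looked at after their positions had been seen, and neighbouring boxes lay 30 to 36 bases apart in 8 of the 19 windows with several boxes (42.1%), against 15.4% of the 3842 such windows overall. Mad2l1, Melk, Nuf2, Nusap1 and Pttg1 held none of the searched letters in these windows. The plot of match positions shows where boxes and CHRs lie in each gene. Matches describe letters in a window and were not tested as binding sites.

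**Figure D1:**
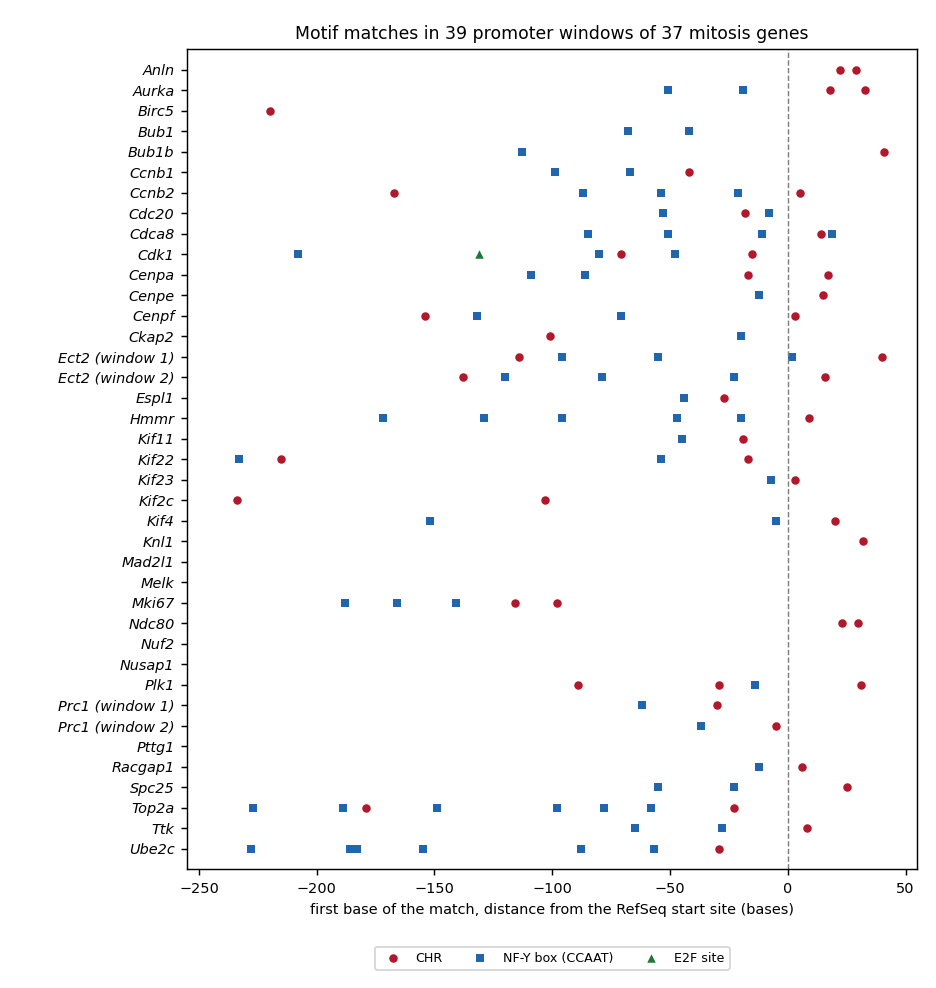
Positions of CHR (circles), CCAAT (squares) and E2F (triangle) matches in 39 RefSeq promoter windows of 37 genes, in bases from the start site (dashed line). CHR matches stand within 50 bases of the start in 29 windows, CCAAT boxes occur on both sides of them, and 5 genes have no match.

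Depth and the state of the libraries bear on all that follows. FPKM, fragments scaled by gene length and a divisor per library, is the deposited unit. Reads recovered from it and summed over genes came to 13961281 to 18480858 per library, which is not the sequencing depth. The divisor was 0.808 to 1.13 times that sum. It followed instead a size factor taken as the median of gene ratios between libraries (relative quotient 0.995 to 1.004). The deposited values were therefore already on a median-of-ratios scale. The first non-injured KO library stood apart: its group had 1804 tested genes more than 2-fold apart between pools, where the other groups had 723 to 838, and mitochondrial reads made up 10.9% of it and 7.49% of the second pool. Tet1 had 0.189 and 0.159 FPKM in libraries labelled injured KO, 0.243 and 0.313 FPKM in injured WT, 0.551 and 0.382 FPKM in the libraries labelled non-injured KO and 0.378 and 0.323 FPKM in non-injured WT. The non-injured KO values were not lower than those of non-injured WT, although a value for the whole gene does not check its deleted stretch. Proximal tubule markers were present in every library and none of the 8 was at 0 in any of them. The limma test used log2(FPKM + 0.1) of the 15650 genes that reached 1 FPKM in 2 or more libraries. A gene was called where its adjusted p was under 0.05 and its log2 fold change was beyond 0.5 in either direction. With pools as replicates, p-values measure the spread between pools of mice. A fold change on this scale understates the change of genes with low values.

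The mitosis genes were low in non-injured kidneys and higher after injury, with 2 exceptions. Their median was 5.24 and 4.35 FPKM in the injured KO libraries, 3.02 and 3.63 FPKM in injured WT, 0.739 and 0.982 FPKM in non-injured KO and 0.511 and 0.583 FPKM in non-injured WT. At least 1 FPKM was reached by 44 and 43 of the 45 genes in injured KO, 41 and 42 in injured WT, 14 and 21 in non-injured KO and 8 and 12 in non-injured WT. The lowest member rested on 43 to 89 reads in each injured library and on 1 to 6 reads in each non-injured one, so non-injured values of the lowest genes carry large counting errors. Of the 45 genes, 43 passed the filter, and 27 of these did so through the injured libraries, since fewer than 2 non-injured libraries reached 1 FPKM. Counts over the 43 are therefore a description of the genes that passed and not a test of the set. Cdc25c and Knl1 did not pass. In whole kidney RNA, more cells that transcribe a gene and more RNA per cell cannot be told apart.

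**Figure D2:**
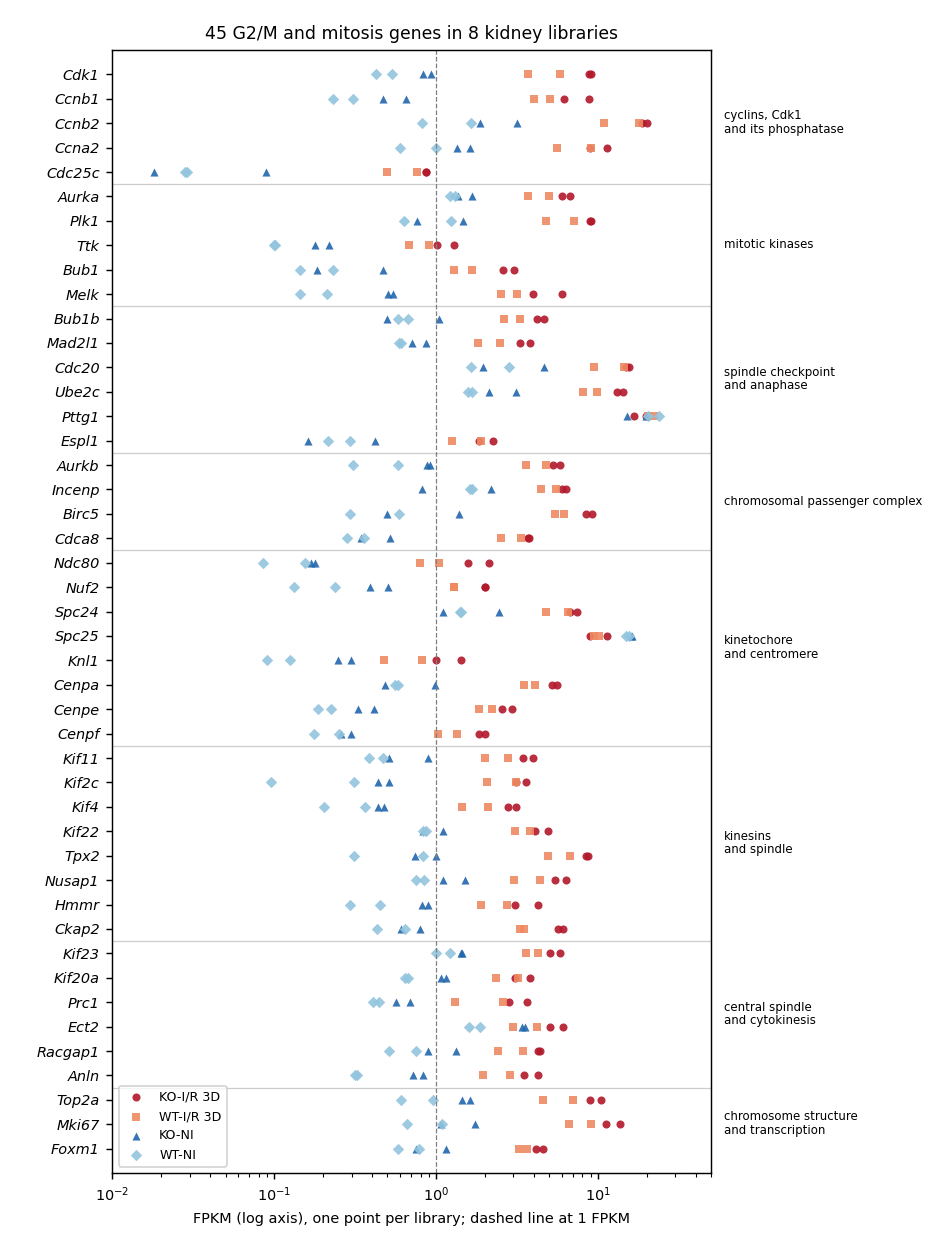
FPKM (log axis) of the 45 genes in each of the 8 libraries, grouped by role, with the dashed line at 1 FPKM. For 43 genes both injured libraries of a genotype lie to the right of both non-injured ones, while Pttg1 and Spc25 lie between 8.89 and 23.8 FPKM in all groups.

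In KO kidneys, 41 of the 43 tested genes rose after injury (injured KO against non-injured KO), 1 fell and 1 did not pass the test. Over all tested genes, 17.9% were called higher and 19.4% lower. The median log2 fold change of the 43 genes was 2.42, beside -0.01 over all tested genes. In WT kidneys (injured WT against non-injured WT) the counts were also 41 higher and 1 lower, beside 8.9% and 8.45% of all tested genes, with a median of 2.31. The same genes formed the exceptions in both genotypes, Spc25 as the one that fell and Pttg1 as the one that did not pass. Counting libraries instead of tests, 43 of all 45 genes had both injured libraries above both non-injured ones in KO kidneys, beside 32.5% of tested genes, and 43 of 45 in WT kidneys, beside 34.5%. Spc25 had both injured libraries below, beside 34.9% of tested genes in KO and 37.6% in WT kidneys. With TPM in place of FPKM, 29% of 19360 genes were called higher and 8.42% lower in KO kidneys, and 9.52% higher and 3.41% lower in WT kidneys, while 43 members were higher in KO and 42 in WT, and 0 lower in both. The KO count was 39 to 41 with any library left out. The WT count was lower with a WT library left out: it was 16 without the second injured WT library (beside 1.32% of all genes), 25 without the first non-injured WT library (beside 1.9%), 29 without the second non-injured WT library (beside 2.46%) and 32 without the first injured WT library (beside 3.1%). Calls thus became fewer over all genes as well, while the median stayed between 2.09 and 2.51 in these fits.

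Cell type markers changed in the same injury comparisons. Their counts stand beside 17.9% of tested genes called higher and 19.4% lower in KO kidneys, and 8.9% and 8.45% in WT kidneys. Of 8 macrophage markers, 7 rose in KO and 8 in WT kidneys (medians 3.17 and 2.26 on the log2 scale), and all 5 injured tubule markers and all 4 fibroblast and pericyte markers rose in both. Of 8 proximal tubule markers, 8 fell in KO and 7 in WT kidneys (medians -1.92 and -1.21). Of 5 T cell markers tested, 5 rose in KO and 3 in WT kidneys. All 6 T cell markers together summed to 2.21 to 2.84 FPKM in the non-injured libraries, so they could pass the filter through the injured ones. The part of these cell types in the rise of the mitosis genes was not tested.

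**Figure D3:**
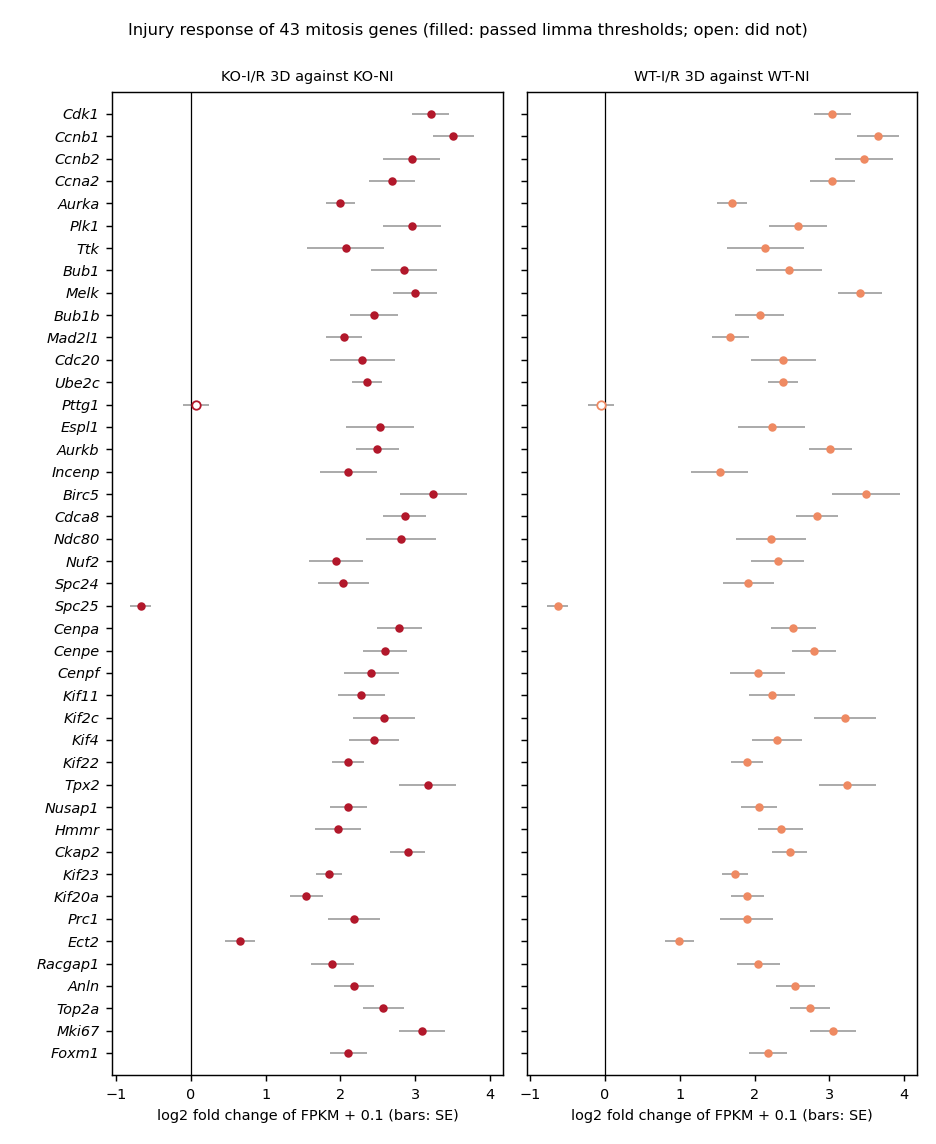
Log2 fold change after injury of the 43 tested genes in KO (left) and WT kidneys (right), with SE as bars; filled points passed the limma thresholds. In both panels 41 genes lie to the right of 0, Spc25 lies at -0.67 in KO and -0.63 in WT kidneys, and Pttg1 is the open point beside 0, whose sign in WT kidneys differs under TPM scaling.

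Among the regulators of mitotic entry, Ccnb1, which encodes cyclin B1, had the largest rise of the 43 genes in the limma fit in both genotypes, and Cdc25c, which that fit did not test, had larger folds of mean FPKM. It was at 8.83 and 6.12 FPKM in injured KO, 3.99 and 5.07 FPKM in injured WT, 0.652 and 0.467 FPKM in non-injured KO and 0.231 and 0.305 FPKM in non-injured WT kidneys. No injured library overlapped a non-injured one, the first injured KO pool was the highest, and the log2 fold change was 3.51 (SE 0.28, adjusted p = 0.00043) in KO and 3.65 (SE 0.28, adjusted p = 0.00199) in WT kidneys by limma. Cdk1, the kinase that cyclin B1 activates, was at 9.08 and 8.78 FPKM in injured KO, 3.70 and 5.81 FPKM in injured WT, 0.827 and 0.930 FPKM in non-injured KO and 0.423 and 0.535 FPKM in non-injured WT kidneys. Its 4 groups did not overlap, in the order given, and it rose by 3.21 in KO and 3.04 in WT kidneys on the log2 scale. Ccnb2, the second B-type cyclin, was at 18.7 and 20.05 FPKM in injured KO, 10.8 and 17.8 FPKM in injured WT, 1.85 and 3.14 FPKM in non-injured KO and 0.818 and 1.63 FPKM in non-injured WT kidneys. It had higher FPKM than Ccnb1 and Ccna2 in every injured library, and rose by 2.95 in KO and 3.47 in WT kidneys.

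Ccna2, the cyclin of S phase and G2, was at 11.3 and 8.96 FPKM in injured KO, 5.59 and 8.97 FPKM in injured WT, 1.35 and 1.62 FPKM in non-injured KO and 0.596 and 0.996 FPKM in non-injured WT kidneys. The second injured KO pool lay just below the second injured WT pool, and the gene rose in both genotypes (2.69 in KO, 3.04 in WT). An opposite-strand neighbour, Exosc9, overlaps it by 863 bases, and the sources used here do not say whether counting used strand. This overlap and those given below come from the positions in the deposited table, which may belong to a later build than GRCm38.p6. Cdc25c, the phosphatase that removes inhibitory phosphates from Cdk1, was at 0.863 and 0.869 FPKM in injured KO, 0.497 and 0.761 FPKM in injured WT, 0.0180 and 0.0889 FPKM in non-injured KO and 0.0283 and 0.0290 FPKM in non-injured WT kidneys. The non-injured values rested on 1 and 6 reads in non-injured KO and on 2 and 2 reads in non-injured WT. Summed over libraries and scaled by the library divisors, the ratio was 15.2 in KO kidneys (exact 95% interval 7.22 to 38.4) and 22.1 in WT kidneys (8.38 to 82.4), intervals that cover counting error only. With limma voom on recovered reads, which tested all 45 genes and called 20% of its genes higher in KO and 10.8% in WT kidneys, Cdc25c rose by 4.04 in KO and by 4.12 in WT kidneys (adjusted p = 0.000984 and 0.0037, over the alternatives that tested it 0.000984 to 0.00618 and 0.0037 to 0.0220).

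All 5 mitotic kinases outside the passenger complex rose in both genotypes, with median log2 fold changes of 2.85 in KO and 2.46 in WT kidneys. Counts by role, here and below, stand beside 17.9% of tested genes called higher and 19.4% lower in KO kidneys. In WT kidneys these shares were 8.9% and 8.45%. Since 27 of the 43 tested members passed the filter through the injured libraries, counts by role describe the genes that passed. Plk1, which acts at centrosomes, kinetochores and the midbody, was at 8.997 and 8.85 FPKM in injured KO, 4.78 and 7.08 FPKM in injured WT, 0.766 and 1.46 FPKM in non-injured KO and 0.633 and 1.23 FPKM in non-injured WT kidneys. Its injured pools of KO were close to each other and above both WT pools, whereas its non-injured groups overlapped. Aurka, the kinase of the spindle poles, was at 5.98 and 6.72 FPKM in injured KO, 3.68 and 4.98 FPKM in injured WT, 1.37 and 1.67 FPKM in non-injured KO and 1.21 and 1.30 FPKM in non-injured WT kidneys. It had the highest non-injured floor of these kinases and a smaller rise, 2.00 in KO and 1.70 in WT kidneys. Melk, a kinase expressed in dividing cells, was at 5.94 and 3.98 FPKM in injured KO, 2.52 and 3.14 FPKM in injured WT, 0.507 and 0.539 FPKM in non-injured KO and 0.211 and 0.144 FPKM in non-injured WT kidneys. Its groups did not overlap, the fitted rise was 2.99 in KO and 3.40 in WT kidneys, and its non-injured WT values rested on 9 and 6 reads. Ttk and Bub1, which start the spindle checkpoint at kinetochores, stayed at or below 3.03 FPKM in every library and rose by 2.07 and 2.85 in KO and by 2.15 and 2.46 in WT kidneys.

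The genes of the checkpoint and of anaphase included the clearest exception. Bub1b, which encodes the checkpoint protein BubR1, was at 4.63 and 4.19 FPKM in injured KO, 2.61 and 3.31 FPKM in injured WT, 0.498 and 1.04 FPKM in non-injured KO and 0.667 and 0.584 FPKM in non-injured WT kidneys. Mad2l1, its partner in the complex that blocks Cdc20, was at 3.82 and 3.31 FPKM in injured KO, 1.82 and 2.49 FPKM in injured WT, 0.708 and 0.868 FPKM in non-injured KO and 0.589 and 0.604 FPKM in non-injured WT kidneys. Injured libraries stood above non-injured ones for both genes, and the rises were 2.45 and 2.05 in KO and 2.07 and 1.68 in WT kidneys. Cdc20, the activator of the anaphase-promoting complex, was at 14.9 and 15.5 FPKM in injured KO, 9.43 and 14.5 FPKM in injured WT, 1.95 and 4.64 FPKM in non-injured KO and 1.64 and 2.83 FPKM in non-injured WT kidneys. Ube2c, a ubiquitin-conjugating enzyme of that complex, was at 14.2 and 12.99 FPKM in injured KO, 8.04 and 9.77 FPKM in injured WT, 2.11 and 3.11 FPKM in non-injured KO and 1.58 and 1.67 FPKM in non-injured WT kidneys. These were among the most abundant members, and Ube2c had a small spread, with log2 fold changes of 2.36 (SE 0.20, adjusted p = 0.000525) in KO and 2.38 (SE 0.20, adjusted p = 0.00238) in WT kidneys by limma.

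Pttg1 encodes securin, the inhibitor that the complex destroys to free separase. It was at 19.8 and 16.5 FPKM in injured KO, 22.2 and 20.3 FPKM in injured WT, 15.1 and 19.8 FPKM in non-injured KO and 20.4 and 23.8 FPKM in non-injured WT kidneys. All 8 libraries lay between 15.1 and 23.8 FPKM, injured and non-injured libraries overlapped in both genotypes, and the limma log2 fold change was 0.06 (SE 0.17, adjusted p = 0.795) in KO and -0.05 (SE 0.17, adjusted p = 0.864) in WT kidneys. Under the alternatives tried its value ran from -0.13 to 0.47 in KO and from -0.16 to 0.13 in WT kidneys, and it passed in none. Espl1, which encodes separase itself, was at 1.84 and 2.23 FPKM in injured KO, 1.26 and 1.90 FPKM in injured WT, 0.162 and 0.416 FPKM in non-injured KO and 0.215 and 0.294 FPKM in non-injured WT kidneys. Unlike its inhibitor it rose in both genotypes, by 2.53 in KO and 2.23 in WT kidneys, on 16 to 50 reads in the non-injured libraries.

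All 4 genes of the chromosomal passenger complex, which corrects faulty attachments and later acts at the midzone, rose in both genotypes (medians 2.68 in KO and 2.93 in WT). Aurkb, its kinase, was at 5.24 and 5.79 FPKM in injured KO, 3.61 and 4.79 FPKM in injured WT, 0.873 and 0.915 FPKM in non-injured KO and 0.307 and 0.581 FPKM in non-injured WT kidneys. Birc5, which encodes survivin, was at 9.20 and 8.46 FPKM in injured KO, 5.45 and 6.11 FPKM in injured WT, 0.495 and 1.39 FPKM in non-injured KO and 0.593 and 0.294 FPKM in non-injured WT kidneys. Birc5 had the largest rise of the complex, 3.24 in KO and 3.49 in WT kidneys, and its non-injured groups overlapped on 14 to 65 reads. Incenp, the scaffold, had non-injured values of 0.819 and 2.17 FPKM in non-injured KO and 1.62 and 1.67 FPKM in non-injured WT kidneys. The non-injured KO pools thus lay on either side of the non-injured WT pools, and the rise after injury was 2.11 in KO and 1.53 in WT kidneys. Cdca8, which encodes borealin and overlaps an opposite-strand gene by 2264 bases, rose by 2.86 in KO and 2.84 in WT kidneys.

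At the kinetochore, 6 of the 7 tested genes rose in both genotypes and Spc25 fell. Spc25 is one of the 4 subunits of the Ndc80 complex, which binds spindle microtubules. It was at 11.3 and 8.89 FPKM in injured KO, 9.45 and 10.1 FPKM in injured WT, 16.1 and 15.9 FPKM in non-injured KO and 15.6 and 14.8 FPKM in non-injured WT kidneys. Every injured library lay below every non-injured one, and the limma log2 fold change was -0.67 (SE 0.14, adjusted p = 0.00935) in KO and -0.63 (SE 0.14, adjusted p = 0.0245) in WT kidneys. Ndc80, the subunit that gives the complex its name, was at 2.11 and 1.56 FPKM in injured KO, 0.796 and 1.04 FPKM in injured WT, 0.178 and 0.168 FPKM in non-injured KO and 0.0857 and 0.154 FPKM in non-injured WT kidneys. It moved the other way, by 2.81 in KO and 2.22 in WT kidneys, and its non-injured values rested on 8 to 15 reads. Nuf2 and Spc24, the other subunits, rose by 1.94 and 2.04 in KO and by 2.31 and 1.91 in WT kidneys. In non-injured kidneys Spc25 was at 14.8 to 16.1 FPKM while the other 3 subunits were at 0.0857 to 2.44 FPKM, so levels per length of the 4 subunits were far apart before injury and closer after it. With TPM scaling, under which the median over all genes shifts by 0.40 in KO and 0.18 in WT kidneys, Spc25 kept its direction and no longer passed the test. It was also not called in WT kidneys when any 1 of the 4 WT libraries was left out, and in KO kidneys without the second injured KO library or with only the libraries compared. Over all alternatives its limma adjusted p ran from 0.00507 to 0.171 in KO and from 0.0055 to 0.153 in WT kidneys.

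Cenpa, the histone variant that marks centromeres, was at 5.59 and 5.21 FPKM in injured KO, 3.46 and 4.06 FPKM in injured WT, 0.484 and 0.982 FPKM in non-injured KO and 0.582 and 0.560 FPKM in non-injured WT kidneys. Cenpe, a kinesin that carries chromosomes to the spindle equator, was at 2.95 and 2.54 FPKM in injured KO, 1.83 and 2.21 FPKM in injured WT, 0.411 and 0.330 FPKM in non-injured KO and 0.186 and 0.224 FPKM in non-injured WT kidneys. Cenpf, a large protein of the outer kinetochore, was at 2.01 and 1.83 FPKM in injured KO, 1.02 and 1.35 FPKM in injured WT, 0.259 and 0.297 FPKM in non-injured KO and 0.176 and 0.250 FPKM in non-injured WT kidneys. All 3 had injured libraries well above non-injured ones, with rises of 2.79, 2.60 and 2.42 in KO and of 2.52, 2.79 and 2.04 in WT kidneys. Knl1, the scaffold that recruits Bub1, was at 1.42 and 0.995 FPKM in injured KO, 0.479 and 0.820 FPKM in injured WT, 0.249 and 0.299 FPKM in non-injured KO and 0.0896 and 0.125 FPKM in non-injured WT kidneys. It lay below the filter, its groups did not overlap, and limma voom gave a rise of 2.08 in KO and 2.52 in WT kidneys (adjusted p = 0.00175 and 0.00696, over the alternatives that tested it 0.00175 to 0.024 and 0.00696 to 0.0473).

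All 8 kinesin and spindle genes rose in both genotypes (medians 2.37 in KO and 2.32 in WT). Kif11, the motor that pushes spindle poles apart, was at 3.94 and 3.44 FPKM in injured KO, 2.01 and 2.76 FPKM in injured WT, 0.511 and 0.889 FPKM in non-injured KO and 0.466 and 0.383 FPKM in non-injured WT kidneys. Kif2c, which takes microtubules apart at centromeres, was at 3.58 and 3.09 FPKM in injured KO, 2.06 and 3.10 FPKM in injured WT, 0.508 and 0.434 FPKM in non-injured KO and 0.0957 and 0.311 FPKM in non-injured WT kidneys. For Kif2c the second injured WT pool lay just above the second injured KO pool, and the first non-injured WT value rested on 6 reads. Tpx2, which activates Aurora A on the spindle, had the largest rise of the 8 in both genotypes, 3.17 in KO and 3.24 in WT. Ckap2, a protein of spindle microtubules, was at 6.05 and 5.65 FPKM in injured KO, 3.48 and 3.31 FPKM in injured WT, 0.607 and 0.793 FPKM in non-injured KO and 0.433 and 0.644 FPKM in non-injured WT kidneys. It was one of only 2 members whose second injured WT pool was not above the first, and it rose by 2.90 in KO and 2.47 in WT kidneys. Kif4 and Kif22, motors on chromosome arms, and Nusap1 and Hmmr, spindle-bound proteins, rose by 1.97 to 2.45 in KO and by 1.89 to 2.35 in WT kidneys, with Kif4, Kif22 and Nusap1 overlapping an opposite-strand gene by 832, 3824 and 172 bases.

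The 6 genes of the central spindle and cytokinesis rose too, and they had the lowest median of the role groups (1.87 in KO and 1.90 in WT). Prc1, which bundles midzone microtubules and shares 21810 bases with the opposite-strand gene Rccd1, was at 3.64 and 2.80 FPKM in injured KO, 1.31 and 2.59 FPKM in injured WT, 0.690 and 0.567 FPKM in non-injured KO and 0.406 and 0.443 FPKM in non-injured WT kidneys. Kif20a, a motor that brings Plk1 to the midzone, was at 3.78 and 3.08 FPKM in injured KO, 2.34 and 3.19 FPKM in injured WT, 1.06 and 1.14 FPKM in non-injured KO and 0.673 and 0.642 FPKM in non-injured WT kidneys, and it shares 2327 bases with the opposite-strand gene Cdc23. Kif23 and Racgap1, which form centralspindlin, rose by 1.85 and 1.89 in KO and by 1.74 and 2.05 in WT kidneys. Anln, which links actin and septins at the furrow, was at 4.27 and 3.49 FPKM in injured KO, 1.94 and 2.84 FPKM in injured WT, 0.714 and 0.828 FPKM in non-injured KO and 0.322 and 0.315 FPKM in non-injured WT kidneys. Ect2, the exchange factor that turns on RhoA for the contractile ring, was at 6.04 and 5.06 FPKM in injured KO, 2.99 and 4.16 FPKM in injured WT, 3.52 and 3.41 FPKM in non-injured KO and 1.86 and 1.59 FPKM in non-injured WT kidneys. Ect2 had the smallest rise of the 41 genes, 0.66 (SE 0.20, adjusted p = 0.0363) in KO and 0.99 (SE 0.20, adjusted p = 0.0182) in WT kidneys by limma, and its non-injured KO pools lay inside the range of the injured WT pools. Over all alternatives its limma adjusted p ran from 0.0110 to 0.166 in KO and from 0.0102 to 0.117 in WT kidneys.

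Top2a, the topoisomerase that untangles sister chromatids, was at 10.4 and 8.85 FPKM in injured KO, 4.56 and 6.99 FPKM in injured WT, 1.45 and 1.61 FPKM in non-injured KO and 0.602 and 0.950 FPKM in non-injured WT kidneys. Mki67, which encodes the proliferation marker Ki-67, was at 13.7 and 11.2 FPKM in injured KO, 6.61 and 9.09 FPKM in injured WT, 1.07 and 1.72 FPKM in non-injured KO and 0.657 and 1.09 FPKM in non-injured WT kidneys. These had the most reads of the members when summed over libraries (78 to 2399 per library), and they rose by 2.57 and 3.09 in KO and by 2.74 and 3.05 in WT kidneys. Foxm1, the transcription factor that activates many genes of G2, was at 4.59 and 4.13 FPKM in injured KO, 3.23 and 3.63 FPKM in injured WT, 0.755 and 1.15 FPKM in non-injured KO and 0.786 and 0.583 FPKM in non-injured WT kidneys. It rose by 2.11 in KO and 2.18 in WT kidneys, and in WT it no longer passed without the second injured WT library (2.10, limma adjusted p = 0.0519, over all alternatives 0.00061 to 0.0519).

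Tet1 KO kidneys had higher values of most mitosis genes than WT kidneys in the injured state, but no member passed the test. In injured KO against injured WT, 39 of 45 genes had both KO pools above both WT pools, beside 28% of tested genes, and Pttg1 had both below, beside 29.5%. Ccna2, Espl1, Kif20a, Kif2c and Spc25 overlapped. The median fold of mean FPKM was 1.49, from 0.855 for Pttg1 to 2.00 for Ndc80. With limma 0 of 43 genes were called in either direction, as were 0% of all tested genes. That share belongs to this fit, whose estimate of spread is shared by all groups, including the non-injured KO pools that stood apart. With only the libraries compared it was 0% too, while limma voom called 0.471% of its genes higher and 1.63% lower. The share also rose above 0% in both directions when either non-injured KO library was left out, in fits that kept a single library of that group. The paper reported genes changed in both directions for this comparison at the same thresholds. At an unadjusted p under 0.05, 12 of the 43 were higher (beside 5.61% of tested genes) and 0 lower (beside 11.3%). At that level 25 of 43 were higher with only the libraries compared (beside 9.92%) and 30 of 45 with limma voom (beside 8.76%). The median log2 fold change was 0.57, beside -0.0025 over all tested genes, and 42 of 43 values lay above 0, beside 49.6% of tested genes. With TPM the median was 0.71, beside 0.13 over all genes tested that way. An adjusted p that misses the threshold does not show that the genotypes were alike.

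Cdk1 had the smallest adjusted p of the members and, on the log2(FPKM + 0.1) scale, the largest difference, while Ndc80 led in the fold of mean FPKM and with limma voom (0.99). Its pools, 9.08 and 8.78 FPKM in injured KO and 3.70 and 5.81 FPKM in injured WT kidneys, did not overlap, with a log2 fold change of 0.93 (SE 0.24, adjusted p = 0.146) by limma. With limma voom on recovered reads, Cdk1 (0.95, adjusted p = 0.0421) and Ckap2 (0.79, adjusted p = 0.0487) passed, 2 of 45 members beside 0.471% of the genes tested that way. Over all alternatives the adjusted p ran from 0.0421 to 0.615 for Cdk1 and from 0.0487 to 0.615 for Ckap2. Cdk1 lies on chromosome 10, as Tet1 does, 6.43 Mb from it by the positions in the deposited table. Ndc80 was at 2.11 and 1.56 FPKM in injured KO and 0.796 and 1.04 FPKM in injured WT kidneys, a difference of 0.92 (SE 0.47, adjusted p = 0.376). Bub1 was at 3.03 and 2.58 FPKM in injured KO and 1.28 and 1.67 FPKM in injured WT kidneys, a difference of 0.89 (SE 0.44, adjusted p = 0.361). In both genes the KO pools stood above the WT pools, and neither passed.

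By role, the median difference in injured KO against injured WT was 0.66 for Top2a, Mki67 and Foxm1, 0.63 for kinesins and spindle genes, 0.61 for mitotic kinases, 0.60 for cyclins with Cdk1 and for cytokinesis genes, 0.51 for kinetochore genes, 0.47 for checkpoint and anaphase genes and 0.37 for the passenger complex. The pools of one group also differed from each other in a shared way. In injured WT the second pool was above the first for 43 of 45 members (95.6%, median 0.43 on the log2 scale), beside 50.9% of tested genes. In injured KO the second pool was above the first for 8 of 45 (17.8%, median -0.19), beside 49.2%. The members therefore moved together within each injured group, and the 45 genes are not 45 separate observations of the genotype. Without the first injured WT pool the median difference was 0.35, and without the second it was 0.77, with 0 members called in both fits.

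**Figure D4:**
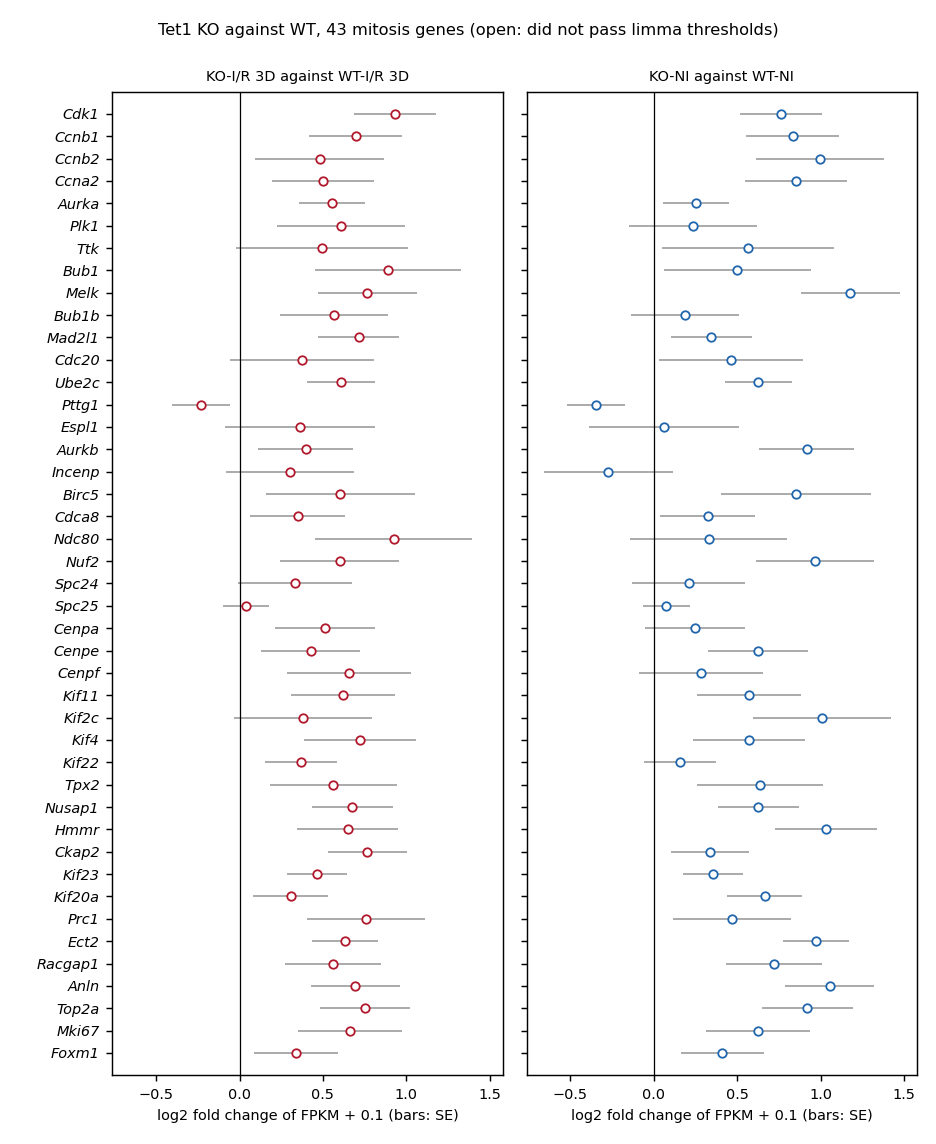
Log2 fold change of Tet1 KO against WT in injured (left) and non-injured kidneys (right) for the 43 tested genes, with SE as bars; open points did not pass the limma thresholds. The points centre on 0.57 in both panels, Pttg1 lies below 0 in both, and no point is filled.

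Cell type markers were compared in the same libraries, and 0 genes of these lists were called by limma between injured KO and injured WT. Over all tested genes, 28% had both KO pools above both WT pools and 29.5% had both below. Summed FPKM of 8 proximal tubule markers was 905 and 656 in injured KO and 1557 and 1323 in injured WT, with both KO pools below both WT pools for 7 of the 8 and none at 0. Summed FPKM of 5 injured tubule markers was 621 and 798 in injured KO and 283 and 452 in injured WT, higher in both KO pools for 4 of 5. Macrophage markers summed to 603 and 937 FPKM in injured KO and 531 and 595 FPKM in injured WT, with 4 of 8 higher in both KO pools, and T cell markers to 9.77 and 14.1 FPKM in injured KO, overlapping 11.1 and 11.5 FPKM in injured WT, with 2 of 6 higher in both KO pools. Fibroblast and pericyte markers summed to 112 and 135 FPKM in injured KO and 98.7 and 109 FPKM in injured WT, with 3 of 4 higher in both KO pools. In the non-injured groups macrophage markers summed to 69.7 and 71.4 FPKM in non-injured KO and 85.8 and 95.5 FPKM in non-injured WT. None of the macrophage and T cell markers was at 0 in any library. The part of these cell types in the levels of the mitosis genes was not tested.

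In non-injured kidneys the mitosis genes were also higher in Tet1 KO for most members, at levels near or below 1 FPKM. In non-injured KO against non-injured WT, 28 of 45 genes had both KO pools above both WT pools, beside 17.7% of tested genes, 1 (Pttg1) had both below, beside 17.2%, and 16 overlapped. The median fold of mean FPKM was 1.61, from 0.791 for Pttg1 to 2.95 for Melk. With limma 0 of 43 members were called and with limma voom 0 of 45, as were 0% of all tested genes by limma, and at an unadjusted p under 0.05 16 were higher (beside 2.24%) and 0 lower (beside 3.35%). With limma voom 13 of 45 were higher at that level (beside 2.3%). With only the libraries compared, 16 members passed the filter and 1 of them was higher (beside 1.31%). The median log2 fold change was 0.57, or 0.21 with a pseudocount of 1, and 41 of 43 values lay above 0, beside 50.5% of tested genes. The members moved together between pools here too. In non-injured KO the second pool was above the first for 36 of 45 members (80%, median 0.27), beside 49.2% of tested genes. In non-injured WT it was above for 34 of 45 (75.6%, median 0.25), beside 51.1%. These counts of members are therefore not separate observations of the genotype. The smallest adjusted p of the members was that of Ect2, 0.97 (SE 0.20, adjusted p = 0.672), and the largest difference that of Melk, 1.18 (SE 0.30, adjusted p = 0.688). The library that stood apart belongs to this comparison: without the first non-injured KO library 0 members were called and the median was 0.69, and without the second 1 was called higher (Ect2, 0.99, limma adjusted p = 0.0436, over all alternatives 0.0436 to 0.982) and 1 lower (Incenp, -0.92, adjusted p = 0.0265, over all alternatives 0.0265 to 1), with a median of 0.35, in a fit that called 5% of all tested genes higher and 9.31% lower. The sign of Incenp was not the same in all of those fits.

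The injury responses of the genotypes were then compared with each other. For the difference of the responses (KO minus WT), 0 of 43 members were called by limma, as were 0% of tested genes, 0 of 45 by limma voom, and 0 passed an unadjusted limma p under 0.05, beside 3.6% of tested genes higher and 6.42% lower at that unadjusted level. The median difference was 0.02, with 22 genes above 0, beside 49.4% of tested genes, and 21 below. This balance changed with the setting: with a pseudocount of 1 the median was 0.18 with 35 of 43 above 0, with TPM it was 0.20 with 30 of 45 above 0, and with 1 library left out it was -0.19 to 0.22 with 13 to 31 above 0. Values ran from -0.62 for Kif2c (SE 0.59) to 0.60 for Ndc80 (SE 0.67). The genotype comparisons in injured and in non-injured kidneys use group means of separate libraries, while each shares its libraries with the injury comparisons. Their limma p-values are not separate, since all groups share an estimate of spread for each gene.

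Because the study set cyclin B1 against cyclin D1 as proteins, their mRNAs were compared too. Ccnd1, the cyclin of early G1, was at 23.7 and 22.8 FPKM in injured KO, 24.9 and 31.02 FPKM in injured WT, 62.8 and 68.7 FPKM in non-injured KO and 58.8 and 61.3 FPKM in non-injured WT kidneys. It fell after injury in both genotypes (-1.49 in KO, -1.11 in WT), in the opposite direction to Ccnb1. The ratio of Ccnb1 to Ccnd1 FPKM was 0.372 and 0.269 in injured KO and 0.160 and 0.164 in injured WT. On the log2 scale it averaged -1.65 ± 0.33 in injured KO and -2.60 ± 0.015 in injured WT (SD, n = 2 each), a difference of 0.95 with a two-sided exact permutation p of 0.333, the smallest that 2 against 2 libraries allow. The ratio was 0.0104 and 0.00679 in non-injured KO and 0.00393 and 0.00497 in non-injured WT.

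**Figure D5:**
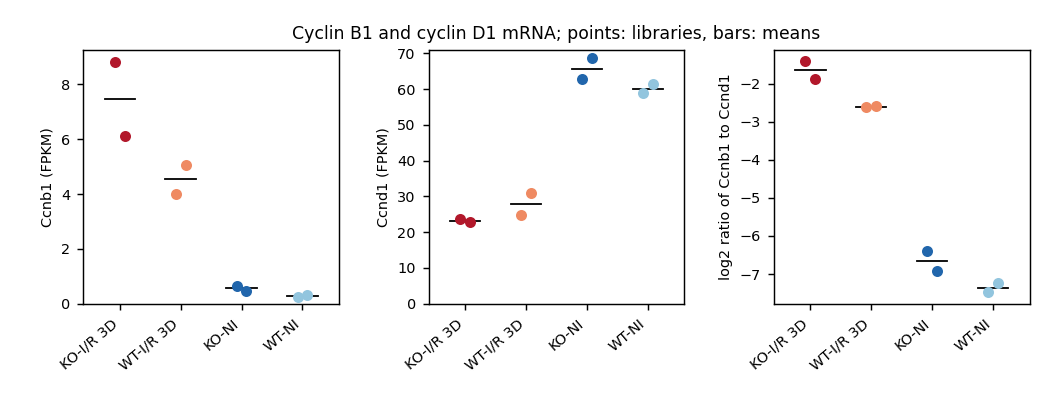
Ccnb1 and Ccnd1 FPKM and the log2 ratio of Ccnb1 to Ccnd1 in each library (points), with group means (bars). The injured KO pools lie above the injured WT pools for Ccnb1 and for the ratio, and Ccnd1 lies at 22.8 to 31.0 FPKM in injured and at 58.8 to 68.7 FPKM in non-injured libraries.

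Other genes of the same machinery were taken from lists by function, and their counts stand beside 17.9% of all tested genes called higher and 19.4% lower in KO and 8.9% higher and 8.45% lower in WT kidneys. The filter kept 12 of 16 other spindle and centrosome genes, 18 of 23 other kinetochore genes and 14 of 15 condensin and cohesin genes. Genes low without injury could pass it through the injured libraries, so these counts describe the genes that passed. Of 12 other spindle and centrosome genes tested, 11 rose in both genotypes, among them Ckap2l (2.57 in KO, 2.22 in WT), Tacc3 (2.41 in KO, 2.41 in WT) and Kif18b (2.71 in KO, 2.56 in WT), while Ckap5 was at 5.39 and 4.81 FPKM in injured KO, 3.93 and 4.66 FPKM in injured WT, 6.32 and 4.75 FPKM in non-injured KO and 3.90 and 4.36 FPKM in non-injured WT kidneys. Of 18 other kinetochore genes, 14 rose in KO and 7 in WT kidneys, with Cenpm, Cenph and Ska3 above 2 on the log2 scale in both and Zwint at 23.6 and 22.996 FPKM in injured KO, 17.2 and 19.97 FPKM in injured WT, 23.5 and 17.2 FPKM in non-injured KO and 17.4 and 17.05 FPKM in non-injured WT kidneys. Of 14 condensin and cohesin genes, 7 rose in KO and 6 in WT kidneys. These included the condensin subunits Ncaph (2.63 in KO, 2.31 in WT), Smc2 (1.49 in KO, 1.46 in WT) and Smc4 (1.37 in KO, 0.84 in WT), whereas the cohesin subunit Rad21 was at 45.5 and 46.3 FPKM in injured KO, 35.03 and 37.5 FPKM in injured WT, 49.2 and 44.5 FPKM in non-injured KO and 40.7 and 41.996 FPKM in non-injured WT kidneys. Of 16 genes of the anaphase-promoting complex and its regulators, 1 was called in either genotype, the inhibitor Fbxo5 (1.30 in KO, 1.07 in WT), a share below that over all genes, and the subunit Anapc5 was at 36.2 to 43.4 FPKM in all 8 libraries.

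Of 12 genes that hold cells in G2 or act in arrest, 8 rose and 1 fell in KO kidneys, and 6 rose and 1 fell in WT kidneys, beside the same shares of all genes (17.9% and 19.4% in KO, 8.9% and 8.45% in WT). Cdkn1a, which encodes the Cdk inhibitor p21, was at 14.3 and 17.9 FPKM in injured KO, 9.23 and 12.7 FPKM in injured WT, 1.52 and 2.81 FPKM in non-injured KO and 2.47 and 2.47 FPKM in non-injured WT kidneys. It rose by 2.89 in KO and 2.09 in WT kidneys, and its injured KO pools lay above its injured WT pools without passing the test, with a limma log2 fold change of 0.56 (SE 0.29, adjusted p = 0.391). Pkmyt1, a kinase that inhibits Cdk1, rose by 2.77 in KO and 2.09 in WT. Wee1, the other kinase that inhibits Cdk1, was at 8.87 and 7.99 FPKM in injured KO, 6.53 and 8.27 FPKM in injured WT, 15.2 and 15.2 FPKM in non-injured KO and 12.5 and 14.4 FPKM in non-injured WT kidneys. It was the gene of the list that fell, by 0.85 in KO and 0.86 in WT kidneys on the log2 scale, so the 2 inhibitory kinases of Cdk1 moved in opposite directions after injury. Gadd45g and Ccng1 did not pass in either genotype.

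Of 11 genes of the MuvB and DREAM complexes, which bind the CHR, 3 rose and 3 fell in KO kidneys and 2 rose and 1 fell in WT kidneys, beside the shares over all genes (17.9% and 19.4% in KO, 8.9% and 8.45% in WT). Mybl2, the B-Myb subunit that joins MuvB in dividing cells, was at 2.01 and 2.23 FPKM in injured KO, 1.84 and 1.82 FPKM in injured WT, 0.766 and 0.629 FPKM in non-injured KO and 0.856 and 0.955 FPKM in non-injured WT kidneys and rose in both genotypes (1.48 in KO, 0.94 in WT). Tfdp1, a partner of E2F proteins, rose (1.06 in KO, 0.68 in WT), and Rbl2, the p130 pocket protein of resting cells, fell (-1.54 in KO, -0.85 in WT). E2f4 and Rbbp4 did not pass in either genotype. Among 8 G1 cyclins and Cdks, 4 rose and 1 fell in KO and 2 rose and 1 fell in WT kidneys, to be read beside the same shares, with Cdk4 (1.09 in KO, 0.71 in WT) and Cdk6 (1.12 in KO, 0.76 in WT) rising in both and Ccnd1 falling.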

How the data were processed

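Whole-kidney RNA was sequenced in 8 libraries of 3 pooled mice each. Reads recovered from FPKM and summed over genes came to 13961281 to 18480858 per library, which is not the sequencing depth. The authors deposited FPKM per gene, with gene lengths, after alignment with HISAT2 2.0.5 to GRCm38.p6 per the submitters' notes; the counting tool and its use of strand are not given in the sources used here. Reads were recovered from FPKM times gene length, with the smallest value above 0 in a library taken as a single read, and whole reads matched at a tolerance of 0.001. Of 55923 lines, 4 were empty. Values were tested as log2(FPKM + 0.1) for 15650 genes at 1 FPKM or more in at least 2 libraries, with limma 3.58.1 (R 4.3.3, empirical Bayes with a variance trend) in 1 fit over all groups and 5 contrasts, with Benjamini-Hochberg adjustment over all genes tested. Calls needed an adjusted p under 0.05 and a log2 fold change beyond 0.5 in either direction. The procedure was tested on simulated data. Alternatives were limma voom on recovered reads (18252 genes), TPM, median-of-ratios scaling, a pseudocount of 1, no filter, no fold threshold, no variance trend, only the libraries compared, a replicate block and leaving out each library. Median-of-ratios scaling nearly repeats the deposited scaling, with median shifts of at most 0.0065 in log2 fold change, so its agreement is no separate check. Per-library values were given for the members that mark each role and for the largest and smallest changes. The 45 genes, the lists and the markers were chosen with earlier results of these data known. Promoter windows came from RefSeq on GRCm38.p6, and Incenp, Aurkb, Spc24, Cdc25c, Kif20a, Ccna2, Foxm1 and Tpx2 were not matched there. Other tools were Python 3.11.15, pandas 2.3.3, numpy 2.4.6, scipy 1.17.1 and matplotlib 3.10.9.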

Additional observations from a re-analysis of the deposited data

How the results depend on the processing

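The count of mitosis genes that rose after injury was 41 in each genotype. In KO kidneys it was 39 to 41 with any library left out and 40 to 43 under the other settings. In WT kidneys it was 16 to 41 with a library left out (16 without the second injured WT library, beside 1.32% of all genes called higher, and 25 without the first non-injured WT library, beside 1.9%, against 8.9% with all libraries) and 39 to 43 otherwise. With 1 library left in a group, that library is assumed to vary like the others. For injured KO against injured WT the count was 0 in every fit except limma voom on recovered reads, where it was 2 (Cdk1, 0.95, and Ckap2). For non-injured KO against non-injured WT it was 0 to 1 with a library left out, the 1 being Ect2 without the second non-injured KO library. For the difference of the injury responses it was 0 in every fit. The median of that difference ran from -0.19 to 0.22 with a library left out and was 0.18 with a pseudocount of 1, beside 0.02. The log2 ratio of Ccnb1 to Ccnd1 (injured KO minus injured WT) was 0.72 to 1.18 with a library left out and 0.85 with a pseudocount of 1 FPKM. For Ccnb1, Cdk1, Foxm1, Mki67 and Top2a, no called value changed sign under an alternative. Apart from Cdk1 with limma voom and Foxm1 without the second injured WT library (2.10), their values kept direction and side of the threshold. Counted as pairs of gene and setting, with at most 17 settings per gene, these were 85 and 84 in the injury contrasts (KO, WT). In the genotype contrasts (injured, non-injured) they were 84 and 82. Replicate numbers were not taken as pairs. Deviations of same-numbered libraries correlated at 0.03 to 0.17 between groups, with the 0.17 between non-injured and injured KO. With 2 pools per group such values cannot exclude pairing. With a replicate block 41, 41, 0, 0 and 0 members were called higher in the 5 contrasts. TPM moved the median of all genes by 0.40 and 0.18 in the injury contrasts of KO and WT kidneys, and under it 43 and 42 members rose and Spc25 no longer passed. Non-injured levels of the lowest members rest on few reads, and 2 pools per group leave the genotype contrasts little precision.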
